A study of Mus musculus with 37 samples.

Results

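The costimulatory ligands and tumor necrosis factor (TNF) receptors of cultured macrophages comprised 10 genes, namely Cd80, Cd86, Icosl, Cd274, Pdcd1lg2, Tnfsf9, Cd40, Tnfrsf1a, Tnfrsf1b and Fas. They were chosen by gene symbol, and each was found once among the 24016 genes of the expression table. Of the 10 genes, 9 were among the 10487 genes analyzed, which reached at least 100 normalized reads at 1 or more times in wild-type (WT) cells. Pdcd1lg2 did not, and its values are given with their reads. The study followed polyA RNA in mouse bone marrow-derived macrophages (BMDMs) after activation of Toll-like receptor 4 (TLR4), to learn how the clock protein Bmal1, encoded by Arntl, affects the course of the inflammatory response. The mice were male, aged 6 to 9 weeks and either WT or Arntl-/-. The strain field of the labels reads C57BL/6J for both genotypes, whereas the growth protocol gives that strain for the WT mice only. Bone marrow cells of both genotypes were cultured in macrophage colony-stimulating factor (M-CSF) for 6 days. They were then exposed for 0, 6, 24 or 48 h to Kdo2-lipid A (KLA), a defined part of bacterial lipopolysaccharide that acts through TLR4. The deletion is carried by the whole animal rather than by macrophages alone, and the study gives its WT mice both as littermates and, as the labels do, as mice from a supplier. How many mice stand behind a library is not given in the sources used here.

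Each of the 8 conditions was represented by 1 library, so differences between conditions had no replicate check and no test was made. Levels are FPKM (reads per kilobase of exon and per 10000000 reads, as the authors scaled them) divided by a size factor per library, and are called scaled FPKM. A difference was counted when it reached 1.5-fold, and each ratio is followed by an exact 95% interval that covers the counting of reads only. The libraries held between 8587556 and 27036775 reads on genes. WT cells at 6 h were the deepest and the 48 h libraries of both genotypes the shallowest. Because the RNA came from whole cultures, fewer cells of a type and less RNA per cell cannot be told apart. The labels list no untreated RNA library at the later times, so changes after KLA and changes with time in culture cannot be told apart either. Arntl itself stood at 34.3, 32.3, 35.6 and 38.7 scaled FPKM in WT cells at 0, 6, 24 and 48 h and at 13.9, 11.3, 18.8 and 20.2 in Arntl-/- cells, lower at every time, although values per gene do not show which exons were lost. All 10 macrophage marker genes were among the genes analyzed. Of 8 T cell markers, Cd3e, Cd3d, Cd3g and Cd8a had at most 3 reads in every library, Cd2 at most 6, Lck at most 7 and Cd5 at most 24. Cd4, the only one of the 8 that was analyzed, had 10 to 61 reads, and its level in order of time was 2.14, 3.59, 10.3 and 14.8 scaled FPKM in the WT libraries against 3.95, 1.28, 4.14 and 3.54 in the Arntl-/- libraries.

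Macrophages present antigen to T cells together with second signals. CD80 and CD86 bind CD28 and CTLA-4 on T cells and ICOSL binds ICOS, whereas PD-L1 (Cd274) and PD-L2 (Pdcd1lg2) bind PD-1 and restrain the T cell. The TNF family works alongside them. 4-1BBL (Tnfsf9) is a ligand carried by the macrophage, CD40 receives CD40L from T cells, the receptors TNFR1 (Tnfrsf1a) and TNFR2 (Tnfrsf1b) bind TNF, and Fas binds Fas ligand and can start cell death.

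Promoter windows, placed at the gene starts of the expression table, are shown for Cd40 and Cd80, which differed between genotypes at 48 h, and for Cd274, Tnfrsf1b and Fas, which were raised together after KLA. Windows of 300 bases, from 250 bases before the start of the gene to 50 after it, were read from the mm9 genome, and 6 motifs were searched on both strands. They were the NF-kB consensus, the core of the interferon-stimulated response element (GAAA, NN and GAAA in a row), the STAT site TTCNNNGAA, the E-box CACGTG that BMAL1 and CLOCK bind, the AP-1 site TGANTCA and the RevErb and ROR core TAGGTCA. Matches are in capitals, 5′ to 3′ on the strand of the gene, and none of those shown overlaps another. For the 7 of the 10 genes with an entry in the RefSeq promoter table (GRCm38.p6) the window was identical to that entry, and Cd40, Cd86 and Tnfsf9 had none. The windows lie at chr2:164880886-164881185 on the plus strand for Cd40, chr16:38458763-38459062 on the plus strand for Cd80, chr19:29441678-29441977 on the plus strand for Cd274, chr4:144836724-144837023 on the minus strand for Tnfrsf1b and chr19:34364899-34365198 on the plus strand for Fas.
Cd40: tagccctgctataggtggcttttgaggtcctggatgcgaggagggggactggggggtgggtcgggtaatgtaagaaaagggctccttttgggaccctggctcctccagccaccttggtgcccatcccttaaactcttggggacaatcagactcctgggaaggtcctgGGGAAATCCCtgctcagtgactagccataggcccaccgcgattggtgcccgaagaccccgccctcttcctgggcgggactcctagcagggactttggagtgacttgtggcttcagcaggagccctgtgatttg
Cd80: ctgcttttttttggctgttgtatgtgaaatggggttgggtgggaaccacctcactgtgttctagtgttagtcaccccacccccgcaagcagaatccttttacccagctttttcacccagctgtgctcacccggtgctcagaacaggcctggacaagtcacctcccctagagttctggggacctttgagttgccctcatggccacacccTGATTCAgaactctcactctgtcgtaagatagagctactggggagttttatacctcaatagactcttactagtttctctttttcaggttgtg
Cd274: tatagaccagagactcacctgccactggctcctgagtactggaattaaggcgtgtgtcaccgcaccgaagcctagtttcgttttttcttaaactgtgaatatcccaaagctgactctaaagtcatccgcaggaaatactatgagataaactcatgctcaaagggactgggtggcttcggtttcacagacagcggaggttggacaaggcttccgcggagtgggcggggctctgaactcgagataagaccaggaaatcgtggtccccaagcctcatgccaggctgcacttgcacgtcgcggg
Tnfrsf1b: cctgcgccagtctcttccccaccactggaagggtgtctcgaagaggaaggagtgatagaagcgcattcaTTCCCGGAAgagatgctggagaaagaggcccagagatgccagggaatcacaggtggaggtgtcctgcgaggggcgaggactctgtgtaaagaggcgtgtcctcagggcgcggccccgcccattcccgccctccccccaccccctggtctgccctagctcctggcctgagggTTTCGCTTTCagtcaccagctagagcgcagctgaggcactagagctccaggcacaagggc
Fas: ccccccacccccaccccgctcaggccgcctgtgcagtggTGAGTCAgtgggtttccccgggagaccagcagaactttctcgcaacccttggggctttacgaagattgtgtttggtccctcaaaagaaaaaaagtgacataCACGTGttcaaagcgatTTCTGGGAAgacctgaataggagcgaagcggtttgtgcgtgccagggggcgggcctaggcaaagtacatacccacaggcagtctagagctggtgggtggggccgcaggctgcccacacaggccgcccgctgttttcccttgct

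The Cd40 window held 1 match, the NF-kB consensus 83 bases upstream, and the Cd80 window an AP-1 match 42 bases upstream. The Fas window held an AP-1 match 211 bases upstream, the E-box 110 bases upstream and a STAT match 93 bases upstream. In the Tnfrsf1b window a STAT match began 181 bases upstream and the response element core, read on the opposite strand, 10 bases upstream. The Cd274 window held none of these letters. Over all 10 genes the NF-kB consensus was present in 3 windows (Cd40, Icosl and Pdcd1lg2), the STAT site in 3 (Tnfrsf1a, Tnfrsf1b and Fas), the AP-1 site in 2, the response element core and the E-box in 1 each and the RevErb and ROR core in 0. Of the 23954 windows read for all genes, 9.06% held the NF-kB consensus, 7.95% the STAT site, 7.06% the AP-1 site, 3.51% the response element core, 7.75% the E-box and 2.23% the RevErb and ROR core. These matches are descriptions of the letters and were not tested as binding sites.

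Per length, the levels of the 10 genes spanned a wide range and kept much of their order. Tnfrsf1b was the highest in all 8 libraries, at a mean of 1436 scaled FPKM, which placed it at percentile 98.2 of the genes analyzed. Cd274 and Tnfrsf1a came next, with means of 573 and 543 scaled FPKM, and Tnfrsf1a stood above Cd274 in both genotypes at 0 and 6 h and below it in both at 48 h. At 24 h in WT cells these neighbors did not differ beyond their counting intervals. Fas and Tnfsf9 followed with means of 265 and 188, then Cd80, Cd86 and Cd40 with 98.9, 84.1 and 64.4, and Icosl with 32.5. Other neighbors with overlapping intervals were Cd80 with Cd40 and Cd40 with Cd86 in WT cells at 0 h, Fas with Tnfsf9 and Cd40 with Cd86 at 6 h, Cd40 with Icosl at 24 h and Cd80 with Cd86 at 48 h. In Arntl-/- cells they were Cd86 with Cd40 at 0 and 6 h and Cd86 with Cd80 at 24 h. Pdcd1lg2 was the lowest everywhere, at a mean of 3.6.

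**Figure D1:**
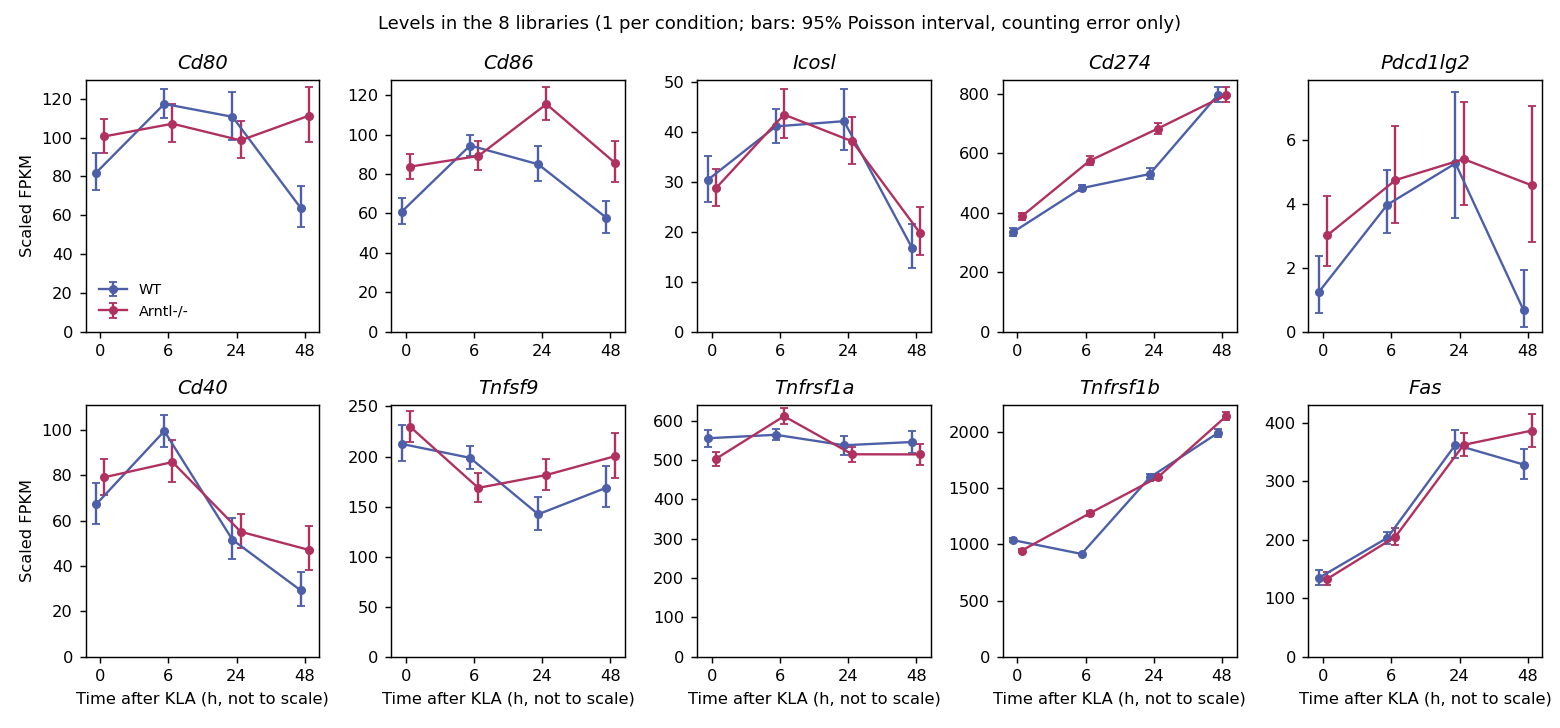
Scaled FPKM of each of the 10 genes (vertical axis, starting at 0) by time after KLA (horizontal axis, 0, 6, 24 and 48 h, evenly spaced) in WT and Arntl-/- BMDMs, with 1 library per point and bars for the 95% Poisson interval of the reads. Cd274, Tnfrsf1b and Fas end above their 0 h level in both genotypes and Tnfrsf1a stays near its own. At 48 h the Arntl-/- level is the higher one for Cd80, Cd86, Cd40 and Pdcd1lg2, as it is by a smaller ratio at 0 h.

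The B7 ligands Cd80 and Cd86 were higher at 6 and 24 h than at 0 h in WT cells and back at or below the starting level by 48 h, whereas in Arntl-/- cells both were above the WT level at 48 h. Cd80 (NM_009855, chr16:38459013-38487014) stood at 81.9, 117, 111 and 63.8 scaled FPKM in WT cells, in order of time. The Arntl-/- libraries had 101, 107, 98.6 and 111 scaled FPKM, a range of 1.13-fold over time compared with 1.84-fold in WT cells. At 48 h the ratio of Arntl-/- to WT was 1.75 (1.41 to 2.16), a log2 ratio of 0.80, and 2.72% of the genes analyzed had a ratio as high. The ratio at 0 h was 1.23 (1.06 to 1.42). From 24 to 48 h Cd80 fell in WT cells to 0.576 (0.469 to 0.703) of its level and in Arntl-/- cells the ratio was 1.13 (0.96 to 1.33). From 24 to 48 h in WT cells 4 of the 10 genes were lowered by at least 1.5-fold (Cd80, Cd40, Icosl and Pdcd1lg2) and 1, Cd274, was raised, where 9.71% and 8.23% of all genes were. In Arntl-/- cells 1 was lowered, Icosl, and 0 raised, compared with 9.03% and 6.97%. Pdcd1lg2, with 30 reads at 24 h and 3 at 48 h in WT cells, is outside the genes behind these percentages. Without it the genes lowered in WT cells were Cd80, Cd40 and Icosl. Cd274 lay just past the 1.5-fold line in WT cells, at a log2 of 0.587 (0.519 to 0.655). Cd86 fell just short of being counted as lowered there, at -0.556 (-0.815 to -0.301). The alternative scalings were not applied to the steps from 24 to 48 h.

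Cd86 (NM_019388, chr16:36603955-36666163, minus strand), which shares its receptors with Cd80 and lies 1793 kb from it on the same chromosome, stood at 61.0, 94.5, 85.0 and 57.8 scaled FPKM in WT cells. In Arntl-/- cells it stood at 83.8, 89.2, 116 and 85.9. The Arntl-/- level was above WT at 0, 24 and 48 h and not at 6 h, with ratios of 1.37 (1.20 to 1.57), 0.943 (0.852 to 1.04), 1.36 (1.20 to 1.55) and 1.49 (1.23 to 1.79) in order of time. None of these reached 1.5-fold, and the value at 48 h, a log2 ratio of 0.57, was the nearest below that line among the 10 genes. With the values as deposited it was 0.61 and with upper-quartile scaling 0.59, both past the line. At 6 h after KLA Cd86 was 1.55-fold (1.37 to 1.76) above 0 h in WT cells and 1.06-fold (0.95 to 1.19) in Arntl-/- cells, although after a correction of each library for expression level the WT value fell short of 1.5-fold, at a log2 of 0.58.

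Icosl (NM_015790, chr10:77532113-77542270), the ligand of ICOS, was lowest at 48 h in both genotypes. It stood at 30.3, 41.0, 42.1 and 16.7 scaled FPKM in WT cells and at 28.6, 43.4, 38.0 and 19.6 in Arntl-/- cells. The 48 h level was 0.551 (0.405 to 0.741) of the 0 h level in WT cells and 0.685 (0.516 to 0.898) in Arntl-/- cells. The genotypes differed by less than 1.5-fold at every time, and each of the 4 intervals included a ratio of 1.

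The inhibitory ligand Cd274 (NM_021893, chr19:29441928-29462584) was higher at each later time in both genotypes. Its levels were 335, 482, 529.9 and 796 scaled FPKM in WT libraries and 387, 575, 683 and 796 in Arntl-/- cells. The 48 h level was 2.38-fold (2.26 to 2.5) above 0 h in WT cells and 2.06-fold (1.97 to 2.15) in Arntl-/- cells. Arntl-/- cells had more Cd274 at 0, 6 and 24 h, with ratios of 1.16 (1.1 to 1.21), 1.19 (1.15 to 1.23) and 1.29 (1.23 to 1.34), none of them 1.5-fold, and the genotypes met at 48 h with a ratio of 1.0 (0.956 to 1.05). After the correction for expression level the 6 h difference was a log2 ratio of 0.02 in place of 0.25. Over the 8 libraries the genes whose pattern was most like that of Cd274 were Cmtr1, Oas3 and H2-T24, each at Pearson r = 0.995. Cmtr1 methylates the cap of mRNA, Oas3 is an interferon-induced sensor of double-stranded RNA and H2-T24 is a nonclassical class I gene. Oas3 moved by more than Cd274, from 113 to 634 scaled FPKM between 0 and 48 h in WT cells and from 146 to 611 in Arntl-/- cells.

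Pdcd1lg2 (NM_021396, chr19:29485409-29547417), which encodes PD-L2, begins 22825 bases after the end of Cd274, yet its transcript was close to the limit of detection. The WT libraries held 9, 66, 30 and 3 reads of it at 0, 6, 24 and 48 h and the Arntl-/- libraries 32, 41, 46 and 20. In scaled FPKM these were 1.25, 3.96, 5.26 and 0.660 in WT libraries and 3.01, 4.74, 5.39 and 4.57 in Arntl-/- cells. The genotypes were close at 6 and 24 h, with ratios of 1.19 (0.789 to 1.79) and 1.03 (0.634 to 1.68), and apart at 0 h with 2.41 (1.13 to 5.75) and at 48 h with 6.92 (2.05 to 36.4). The 48 h ratio was taken against 3 reads, and the width of its interval is part of the result.

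Tnfsf9 (NM_009404, chr17:57244808-57247180), the 4-1BB ligand, had a lower level after KLA than before it at every time in both genotypes, except that the WT change at 6 h turned to a log2 of 0.06 with the values as deposited. It stood at 213, 199, 142 and 169 scaled FPKM in WT cells and at 229.8, 169, 182 and 200.2 in Arntl-/- cells. The lowest level came at 24 h in WT cells, 0.670 (0.579 to 0.773) of the 0 h level, and at 6 h in Arntl-/- cells, 0.734 (0.658 to 0.819). Neither was a 1.5-fold difference, although the WT value passed that line as deposited, at a log2 of -0.61. In Arntl-/- cells the 6 and 24 h levels did not differ beyond counting, at a ratio of 24 h to 6 h of 1.08 (0.954 to 1.21). Tnfsf9 overlaps Gm11110 on the opposite strand, and since reads were counted on both strands the transcripts cannot be told apart there.

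Among the receptors, Cd40 (NM_170702, chr2:164881136-164897154) was highest at 6 h and lowest at 48 h, and the fall was larger in the WT libraries. It stood at 67.2, 99.5, 51.6 and 29.3 scaled FPKM in WT cells and at 79.1, 85.9, 55.1 and 47.1 in Arntl-/- cells, so that the highest and lowest times were the same in both genotypes but the range was 3.4-fold in WT and 1.82-fold in Arntl-/- cells. In Arntl-/- cells these times did not differ from their neighbors beyond counting. The ratio of 6 h to 0 h was 1.08 (0.936 to 1.26) and that of 48 h to 24 h 0.855 (0.665 to 1.09). At 48 h Cd40 was at 0.436 (0.324 to 0.580) of its 0 h level in WT cells and 0.595 (0.471 to 0.746) in Arntl-/- cells. The ratios of the genotypes at 0, 6 and 24 h were 1.18 (0.997 to 1.39), 0.863 (0.758 to 0.981) and 1.07 (0.860 to 1.33), and the ratio reached 1.61 (1.16 to 2.25) by 48 h. The 48 h value rests on 62 reads in WT cells and 96 in Arntl-/- cells. A ratio as high was found for 4.07% of the genes analyzed.

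The receptors of TNF differed from each other. Tnfrsf1a (NM_011609, chr6:125299741-125312501), which carries a death domain, had the smallest range over time of the 10 genes in WT cells, at 555, 564, 538 and 546 scaled FPKM in WT libraries and 503, 612, 515 and 514 in Arntl-/- cells. Its range over time was 1.05-fold in WT and 1.22-fold in Arntl-/- cells. Tnfrsf1b (NM_011610, chr4:144802271-144836773, minus strand), which lacks a death domain, stood at 1037, 914, 1594 and 1989.6 in WT cells and at 943, 1276, 1596 and 2138 in Arntl-/- cells. By 48 h it was 1.92-fold (1.87 to 1.97) above 0 h in WT cells and 2.27-fold (2.21 to 2.32) in Arntl-/- cells. The largest difference between genotypes was at 6 h, where the ratio was 1.40 (1.37 to 1.42) and WT cells were below their 0 h level. The summed level of the 10 macrophage markers had the same order of times, with 22496.5, 16681, 28805 and 39624 scaled FPKM in the WT libraries and 18874, 22278, 26792 and 35481 in the Arntl-/- libraries. Lyz2 gave the largest part of it, from 7561 to 21812 in WT libraries, while Mrc1 went the other way, from 1077 at 0 h to 421 at 48 h in WT libraries and from 857 to 310 in Arntl-/- cells. Between genotypes the median log2 ratio of these markers was 0.40 at 6 h, with Mertk at -0.36 and Mrc1 at -0.04. Their part in the levels of Tnfrsf1b was not tested.

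That WT value came from the deepest library, in which Tnfrsf1b had 4.47 reads per base of exon, compared with 2.20 to 4.00 in the other libraries. The authors kept at most 3 reads per position, and in the same library the median of the tenth of genes with the highest levels was -0.35 (log2) from their mean over the 8 libraries. At 48 h that median was 0.30 in WT and 0.25 in Arntl-/- cells. When each library was corrected for expression level, the rise of Tnfrsf1b fell short of 1.5-fold in WT cells at 24 and 48 h, with log2 changes of 0.49 and 0.54 in place of 0.62 and 0.94, and in Arntl-/- cells at 24 h, with 0.58 in place of 0.76. The log2 ratio of the genotypes at 6 h was then 0.04 in place of 0.48, and the WT change from 0 to 6 h turned from -0.18 to 0.27.

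Fas (NM_007987, chr19:34365149-34402260) reached the largest rise of the 9 genes analyzed, with similar levels in both genotypes up to 24 h. It stood at 135, 203, 363 and 329 scaled FPKM in WT cells and at 133, 205, 362 and 387 in Arntl-/- cells. The 24 h level was 2.68-fold (2.39 to 3.02) above 0 h in WT cells and 2.72-fold (2.47 to 3.00) in Arntl-/- cells, and 0.982% of all genes in WT and 0.839% in Arntl-/- cells rose as much. At 0, 6 and 24 h the genotype ratios were 0.985 (0.869 to 1.12), 1.01 (0.924 to 1.1) and 0.999 (0.918 to 1.09), and at 48 h the ratio was 1.18 (1.06 to 1.31). The gene with the pattern most like it over the 8 libraries was Birc3, an inhibitor of apoptosis protein that acts below TNF receptors, at r = 0.993, followed by Ddit4 and Usf1.

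**Figure D2:**
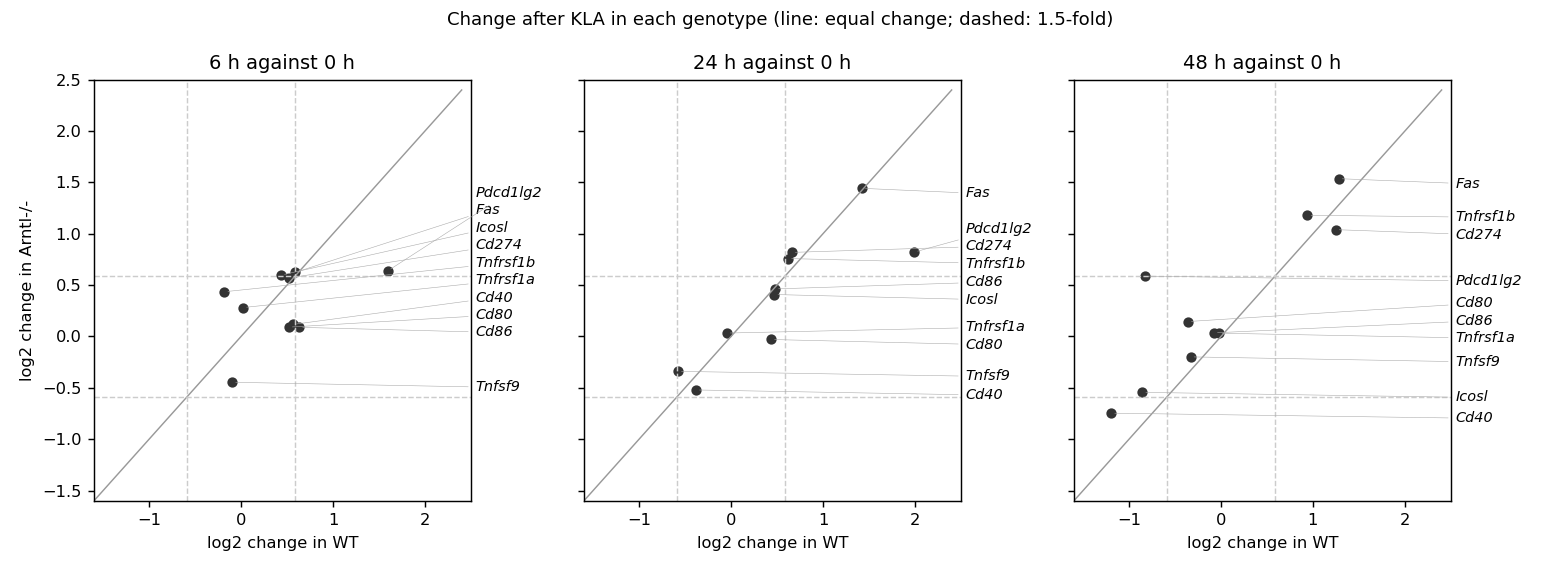
Log2 change against 0 h in WT cells (horizontal axis) and in Arntl-/- cells (vertical axis) for the 10 genes at 6, 24 and 48 h after KLA, 1 point per gene, where the diagonal marks equal change and dashed lines 1.5-fold. Fas lies near the diagonal at 1.42 and 1.44 at 24 h. At 48 h all genes but Cd274 lie above it, Pdcd1lg2, Cd80 and Cd40 the farthest, and all points share the same WT libraries.

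Counted over the 10 genes, 3 were raised by at least 1.5-fold at 6 h after KLA in WT cells (Cd86, Pdcd1lg2 and Fas) and 0 lowered, where 5.36% and 3.59% of all genes analyzed were. Pdcd1lg2 is not among the genes behind these percentages, and the counts over the 9 genes that are were in order of time 2, 3 and 3 raised, with 0, 0 and 2 lowered. At 24 h 4 of the 10 were raised (Cd274, Pdcd1lg2, Tnfrsf1b and Fas) and 0 lowered, compared with 8.69% and 8.83% of all genes. At 48 h 3 of the 10 were raised (Cd274, Tnfrsf1b and Fas) and 3 lowered (Cd40, Icosl and Pdcd1lg2), compared with 13.5% and 15.1%. The median log2 change of the 10 genes was 0.52, 0.48 and -0.20 in order of time, and that of all genes -0.03, -0.00 and 0.00. Cd40, Cd80 and Cd274 fell just short of the line at 6 h in WT cells, with log2 changes of 0.57, 0.52 and 0.53 (0.74 for Cd274, and so past it, with the correction for expression level), and Fas lay just past it at 0.59, or just short of it with upper-quartile scaling, at 0.56.

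In Arntl-/- cells 3 genes were raised at 6 h (Pdcd1lg2, Icosl and Fas) and 0 lowered, compared with 3.09% and 3.39% of all genes. At 24 h 4 were raised, the same genes as in WT cells, and 0 lowered (7.80% and 9.57% of all genes), and at 48 h 4 were raised (Cd274, Pdcd1lg2, Tnfrsf1b and Fas) and 1 lowered, Cd40 (15.2% and 17.2%). Over the 9 genes without Pdcd1lg2 the numbers raised were 2, 3 and 3 and those lowered 0, 0 and 1. The medians of the 10 genes were 0.36, 0.44 and 0.09, and those of all genes 0.00, 0.01 and -0.01. The comparisons within a genotype share its 0 h library. The counting interval of the ratio of Pdcd1lg2 included 1 at 48 h in WT cells, with 0.530 (0.0922 to 2.12), and at 6 and 48 h in Arntl-/- cells, with 1.57 (0.968 to 2.58) and 1.52 (0.824 to 2.74). The 6 h log2 changes of Cd80, Cd86 and Cd40 were 0.52, 0.63 and 0.57 in WT cells, of which only that of Cd86 reached 1.5-fold (but not with the correction for expression level, at 0.58), and 0.09, 0.09 and 0.12 in Arntl-/- cells, in which their 0 h levels were the higher ones. Whether the changes differ between genotypes could not be tested with 1 library each. With a pseudocount of 1 the log2 change of Pdcd1lg2 was short of 1.5-fold at 48 h in both genotypes, at -0.44 in WT and 0.48 in Arntl-/- cells, and the latter was also short of it with the values as deposited (0.42) and with the correction for expression level (0.41). With that correction Fas in Arntl-/- cells at 6 h was at 0.58 and no longer counted. Icosl in Arntl-/- cells at 6 h was short of the line with the values as deposited (0.54) and with a pseudocount of 1 (0.58). The 6 h counts depended on the scaling. With the values as deposited they were 7 in WT and 0 in Arntl-/- cells, as the median log2 change of all genes itself moved to 0.13 and -0.06.

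Between the genotypes, 1 of the 10 genes was at least 1.5-fold higher in Arntl-/- cells at 0 h (Pdcd1lg2) and 0 lower, where 3.19% and 1.98% of all genes were. At 6 h and at 24 h the counts were 0 in both directions, compared with 2.03% and 2.64% of all genes at 6 h and 3.59% and 3.11% at 24 h. At 48 h 3 were higher (Cd40, Cd80 and Pdcd1lg2) and 0 lower, compared with 5.74% and 5.91%. Without Pdcd1lg2, which is outside the genes behind the percentages, the numbers higher were 0 at 0 h and 2 at 48 h, of 9. At 48 h 9 of the 10 log2 ratios were above 0, with Tnfrsf1a at -0.09 as the exception and Cd274 at 0.00, and their median was 0.24 while that of all genes was -0.02. The medians of the 10 genes at 0, 6 and 24 h were 0.16, 0.05 and 0.02. All 48 h ratios use the same WT library, so they are not independent of each other.

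**Figure D3:**
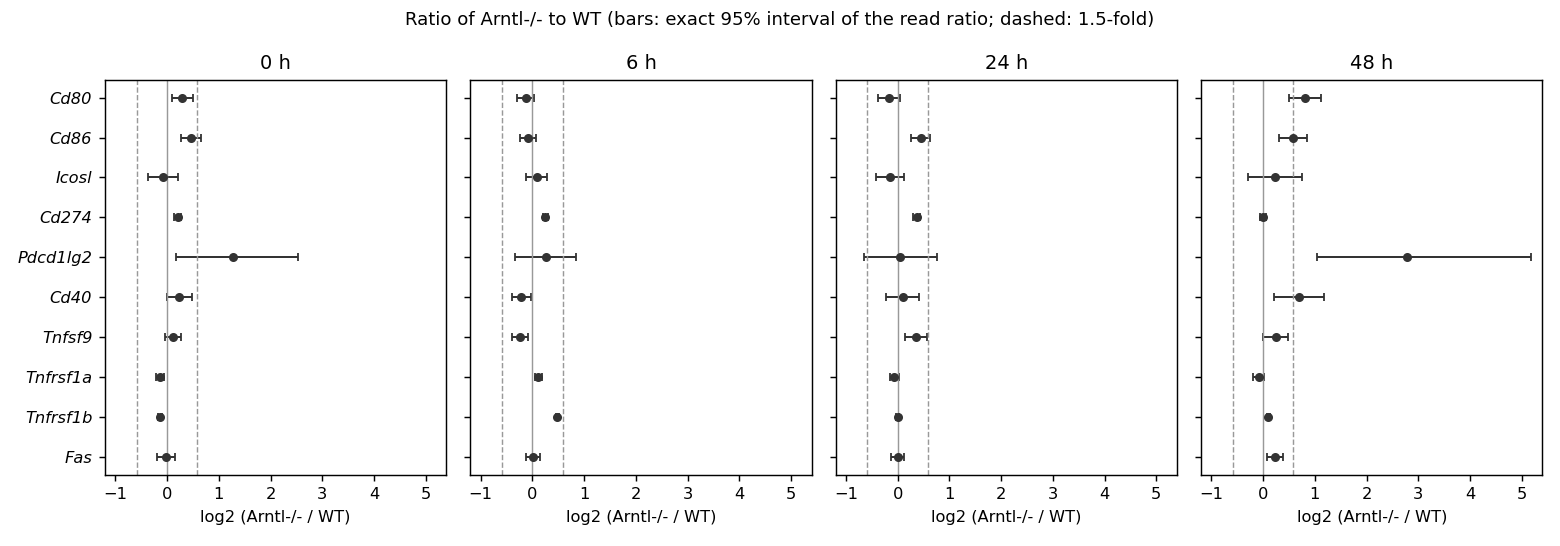
Log2 ratio of the scaled levels in Arntl-/- to WT cells (horizontal axis) for the 10 genes (rows) at 0, 6, 24 and 48 h after KLA, taken from the reads without a pseudocount, with bars for the exact 95% interval of counting error and dashed lines at 1.5-fold. Cd80, Cd40 and Pdcd1lg2 lie past the line at 48 h and Pdcd1lg2 at 0 h.

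The levels of other cells' markers also differed between the libraries. The summed level of 7 stromal markers, 6 of them analyzed, was 484 to 1366 scaled FPKM in WT cells and 364 to 780 in Arntl-/- cells, the highest being at 48 h in both. Of the 6 analyzed, 3, 2, 3 and 4 were lower by at least 1.5-fold in Arntl-/- cells at the successive times, where 1.98, 2.64, 3.11 and 5.91% of all genes were. Their median log2 ratios were -0.53, -0.40, -0.62 and -0.78. At 0 h 1 was higher, Dcn, with a log2 ratio of 1.21, where 3.19% of all genes were higher. Of 8 neutrophil markers 7 were in the table, of which Elane and Mpo had at most 3 reads throughout, and their sum was 509 to 928 in WT and 834 to 1014 in Arntl-/- cells. Within this sum the markers moved in different directions. S100a9 stood at 164, 207, 148 and 10.1 in the WT libraries and at 403, 428, 371 and 9.0 in the Arntl-/- libraries, and Ngp at 37.2, 33.3, 17.1 and 0 against 83.4, 55.2, 38.4 and 2.7, whereas S100a8 went from 308 at 0 h to 910.3 at 48 h and from 401 to 905. S100a9 was higher in Arntl-/- cells at 0, 6 and 24 h, by a log2 of 1.3, 1.04 and 1.32. The 7 dendritic cell markers, none of them analyzed, summed to 26.2 to 54.0 and 25.96 to 43.3, the 6 B cell markers to 21.2 to 37.0 and 28.4 to 60.2, and the 8 T cell markers to 5.57 to 17.0 and 6.06 to 9.59, of which Cd4 gave most in WT cells at 24 and 48 h. The part of these cells in the levels of the 10 genes was not tested.

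**Figure D4:**
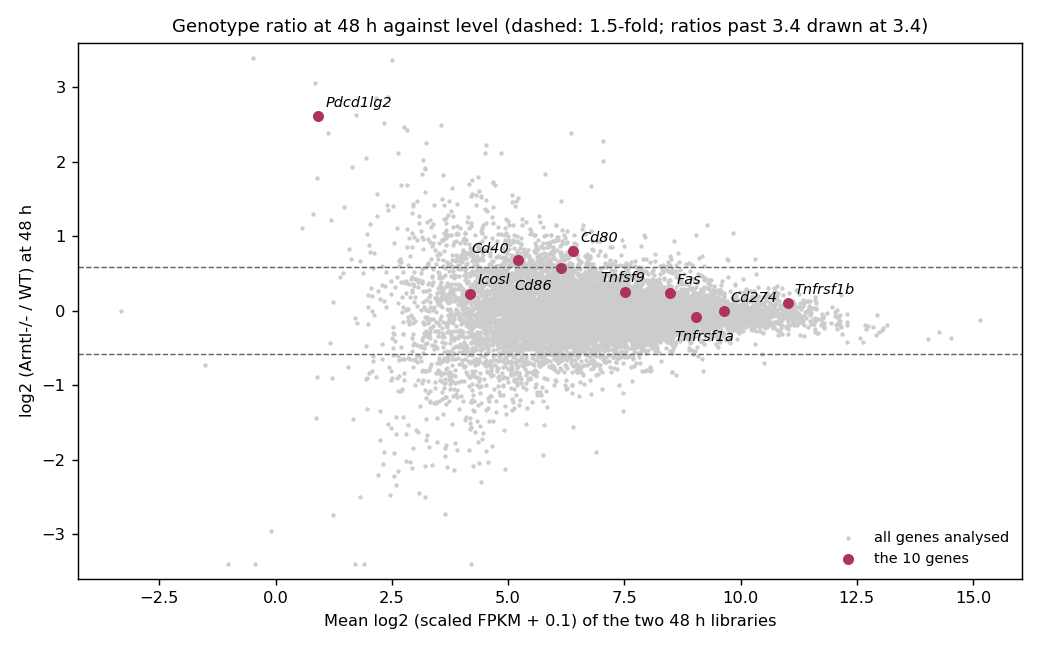
Log2 ratio of Arntl-/- to WT at 48 h (vertical axis) against the mean log2 level of both 48 h libraries (horizontal axis) for all 10487 genes analyzed (gray) and the 10 genes (red), with dashed lines at 1.5-fold. Cd80 at 0.80 and Cd40 at 0.68 lie past the upper line at middling levels, where the gray points are spread widely, and Pdcd1lg2 lies at the low end.

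Genes of the same pathways, listed from general knowledge, were counted in the same way. Of 11 other ligands of the B7 and neighboring families, 8 were analyzed, of which 0 rose and 1 fell at 6 h in WT cells, 2 rose and 0 fell at 24 h and the same numbers at 48 h. Among all genes analyzed the shares that rose were in order of time 5.36, 8.69 and 13.5%, those that fell 3.59, 8.83 and 15.1%. Pvrl2, which encodes nectin-2, a ligand of DNAM-1 and TIGIT, rose from 40.9 scaled FPKM at 0 h to 122 at 24 h and 169 at 48 h in WT cells and from 30.8 to 98.6 and 169 in Arntl-/- cells. Lgals9, encoding galectin-9, rose from 416 to 793 and from 511 to 818 between 0 and 48 h, and the adhesion molecule Icam1 was highest at 24 h, with 739.6 and 710.5. Cd276, which encodes B7-H3, was lower in Arntl-/- cells at all 4 times, by a log2 of -0.69, -0.41, -0.45 and -0.41, and Pvr varied between -0.27 and 0.45. At 48 h 0 of the 8 were higher in Arntl-/- cells and 1 was lower, beside 5.74% and 5.91% of all genes, and their median log2 ratio was -0.01. The lower one was Havcr2, which encodes the receptor TIM-3 rather than a ligand, at a log2 ratio of -0.62. It is outside the rule for named genes and was named after its value was seen.

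Of 17 other TNF family ligands 5 were analyzed, of which 1 rose at 24 h and 2 at 48 h in WT cells (Tnfsf15 and, at 48 h, Tnfsf13b) and 0 fell. Of all genes 8.69% rose and 8.83% fell at 24 h, and 13.5% and 15.1% at 48 h. Between the genotypes at 48 h 0 of the 5 were higher and 1, Tnfsf13, was lower in Arntl-/- cells, beside 5.74% and 5.91% of all genes. Tnf itself stood at 508, 631, 468 and 491 scaled FPKM in WT cells and at 605, 785, 522 and 425 in Arntl-/- cells. Tnfsf15 rose from 9.07 to 18.9 between 0 and 48 h in WT cells and from 8.47 to 18.3 in Arntl-/- cells. Tnfsf13, which encodes APRIL, was lower in Arntl-/- cells by a log2 of -0.60 at 24 h and -0.66 at 48 h, and Tnfsf13b, encoding BAFF, lay on both sides of WT, at 0.32, -0.31, 0.44 and -0.52. Tnfsf12 stayed between 226 and 275 in all libraries.

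Of 24 other TNF family receptors 11 were analyzed. In WT cells 1 rose and 3 fell at 24 h (8.69% and 8.83% of all genes) and again at 48 h (13.5% and 15.1%), and the median log2 change was -0.13 and -0.08. Tnfrsf14, which encodes the herpesvirus entry mediator, was highest at 24 h, going in WT cells from 225 scaled FPKM at 0 h to 435 at 24 h and 305 at 48 h, and in Arntl-/- cells from 204 to 523 and 310.4. Tnfrsf12a, the TWEAK receptor, fell from 129 to 64.9 at 24 h in WT cells and was lower in Arntl-/- cells at each time, most at 6 h with a log2 ratio of -0.97. Tnfrsf13b fell from 86.7 to 48.3 by 48 h and Tnfrsf22 stood at 11.9 at 24 h, compared with 21.4 to 22.3 at the other WT times. Tnfrsf10b lay between a log2 ratio of -0.79 at 24 h and 0.46 at 48 h. At 48 h 0 of the 11 were higher and 2 lower in Arntl-/- cells, beside 5.74% and 5.91% of all genes. These were Tnfrsf12a, at a log2 ratio of -0.74, and Relt, at -1.05, the latter named after its value was seen.

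All 29 genes of TNF receptor and CD40 signaling were analyzed. In WT cells 1 rose at 6 h and 0 fell, 3 rose and 1 fell at 24 h, and 4 rose and 4 fell at 48 h. The counts of the 29 at 48 h were near the shares of all genes, of which 5.36, 8.69 and 13.5% rose in order of time, with 3.59, 8.83 and 15.1% lowered. The adaptor Traf1 rose from 179 to 372 scaled FPKM at 24 h in WT cells and from 230.3 to 418 in Arntl-/- cells, and Birc3 from 224 to 486 and from 211 to 489. The kinases Map3k5 and Ripk3 went down by 48 h, Map3k5 to 0.426 and Ripk3 to 0.599 of the 0 h level in WT cells and to 0.473 and 0.572 in Arntl-/- cells. Between the genotypes at 48 h 2 of the 29 were higher and 0 lower, beside 5.74% and 5.91% of all genes. These were Traf5 and Traf6, adaptors that bind CD40, at log2 ratios of 0.84 and 0.82. Traf5 had 51 reads in WT and 88 in Arntl-/- cells and its log2 ratio was 0.54 at 0 h, -0.45 at 6 h and 0.70 at 24 h, whereas Traf6 had 234 and 398 reads.

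In Arntl-/- cells the numbers raised and lowered at 48 h were 4 and 0 of the 8 ligands of the B7 and neighboring families, 1 and 0 of the 5 TNF family ligands, 1 and 4 of the 11 receptors and 4 and 2 of the 29 signaling genes, where 15.2% and 17.2% of all genes analyzed were raised and lowered. Their median log2 changes were 0.53, -0.20, -0.29 and -0.07 in this order, beside -0.01 for all genes.

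**Figure D5:**
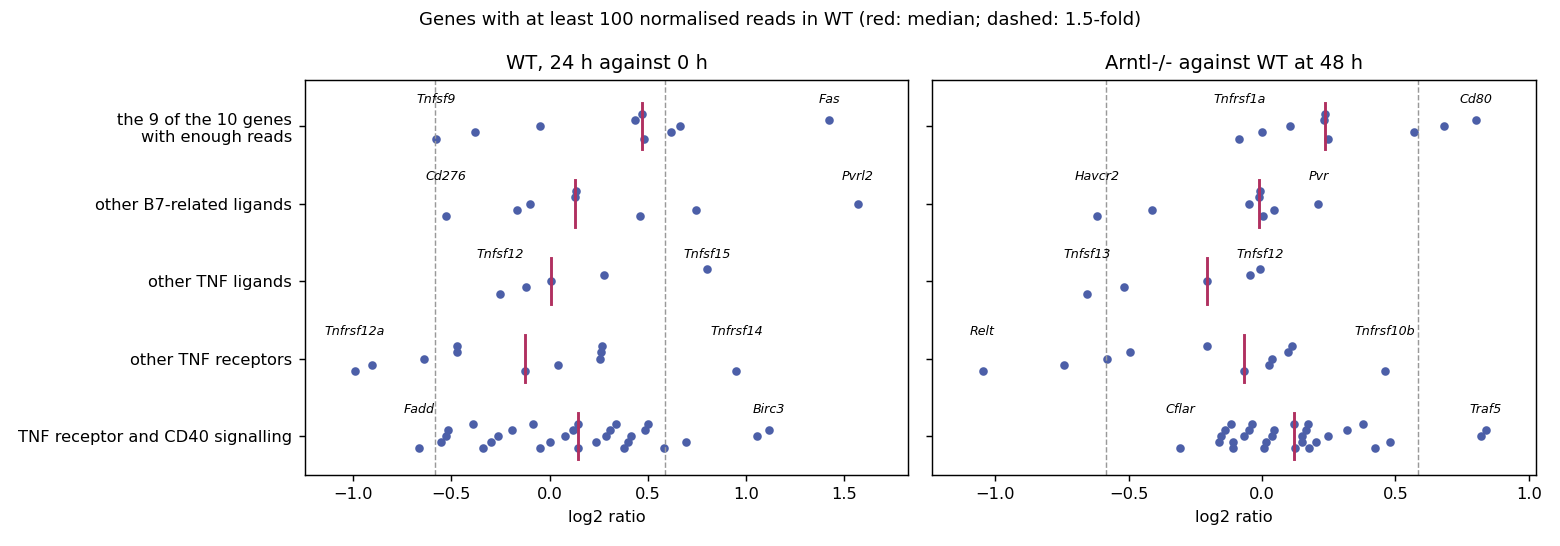
Log2 change of WT cells between 0 and 24 h (left) and log2 ratio of Arntl-/- to WT at 48 h (right) for the analyzed genes of each list, 1 point per gene with red bars at the median and dashed lines at 1.5-fold, the lowest and highest gene of each row being named. The medians at 48 h were 0.23 for the 9 genes analyzed, -0.01 for the other B7-related ligands, -0.21 for the other TNF family ligands, -0.07 for the other TNF family receptors and 0.12 for the signaling genes.

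The receptors by which T cells bind these ligands were counted as well. Of 6 such genes only Cd28 was analyzed. Pdcd1 and Cd40lg had 0 reads in all 8 libraries and Ctla4 had 2 reads in 1 of them. Icos had 6 reads in WT and 2 in Arntl-/- cells at 0 h and 14 in Arntl-/- cells at 48 h. Tnfrsf9, the receptor of 4-1BBL, stood between 5.93 and 13.5 scaled FPKM.

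Across the 8 libraries the 9 genes analyzed fell into courses that can be described by Pearson correlation of their log2 levels, with 8 points that share genotype, time and depth and without a test. Cd274, Tnfrsf1b and Fas went together, at r = 0.879, 0.878 and 0.882 for the 3 pairs. Cd80 and Cd86 had r = 0.775 and Cd40 and Icosl 0.730, while Cd40 ran opposite to Tnfrsf1b at -0.853. All r values were computed without the correction for expression level, which changed the course of Tnfrsf1b. Cd274 and Tnfrsf1b lay at percentiles 91.6 and 98.2 of level, and how far their r depends on the correction was not tested. For the remaining genes the nearest patterns were those of Pfkl, Syk and Cybb for Tnfrsf1b (r = 0.997, 0.994 and 0.993), Dot1l, Xpo5 and Tomm40l for Cd40 (0.984, 0.9796 and 0.979), Ttc9c, Gon4l and Rbm12b2 for Icosl (0.988, 0.976 and 0.965) and Lrp5, Gpr155 and Foxj3 for Tnfsf9 (0.9802, 0.966 and 0.958). Mfap3, Slc35c1 and Perm1 were nearest to Cd86 (0.968, 0.968 and 0.952), and Zscan12, Zfp689 and Hist2h2be to Cd80 (0.956, 0.953 and 0.9505). Tnfrsf1a, which hardly moved, had no gene above 0.861, the value for Zbtb12, with Trim8 and Ebp after it.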

How the data were processed

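PolyA RNA from WT and Arntl-/- BMDMs was sequenced at 4 times after KLA, with 1 library per condition and no test between conditions. Per the labels, paired-end reads were aligned to mm9 with STAR, and per the file headers HOMER counted them on RefSeq exons, on both strands and with at most 3 reads per position, to give the deposited FPKM per 10000000 reads. Versions are not given in the sources used here. In the table, 4 columns of values matched no label and were not used, and 1 line without a gene was left out.

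The FPKM of low genes were whole multiples of 1 read (100% of the values examined, tolerance 0.15), so reads were recovered for depth, intervals and the filter. With paired-end data 1 step may be 1 read or 1 fragment, which the sources used here do not settle and which would change the numbers of reads and the width of the intervals. The filter of 100 normalized reads in WT follows the study's rule but uses these reads and size factors, so its 10487 genes are not the study's own set. Each library was scaled by a median-of-ratios size factor (0.918 to 1.13). Log2 ratios used a pseudocount of 0.1, which understates changes of low genes. Intervals at 95% are exact Poisson for a level and exact conditional binomial for a ratio. No fold was given where both levels had 3 reads or fewer, and a fold against 1 to 3 reads is given with its interval.

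Members and gene lists were chosen with earlier results of these data known. The 1.5-fold line is the one the study draws. Named from each list were up to 4 genes with the largest change in WT and up to 2 with the largest mean genotype ratio, and for likeness the 3 genes of highest r. Promoter windows were read from the NCBIM37 (mm9) genome at the starts in the table. As alternatives the size factors were left out or replaced by upper-quartile scaling, and a lowess correction for expression level (fraction 0.3), pseudocounts of 1 and 0.01 and other filters on low genes were tried. The scripts were checked on simulated data. Intervals came from scipy 1.17.1, the lowess from statsmodels 0.14.6 and the figures from matplotlib 3.10.9, with numpy 2.4.6 and pandas 2.3.3 under Python 3.11.15.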

Additional observations from a re-analysis of the deposited data

How the results depend on the processing

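With the values as deposited, without size factors, the number of the 10 genes raised by at least 1.5-fold was 7 in place of 3 in WT and 0 in place of 3 in Arntl-/- cells at 6 h, the number lowered at 24 h was 1 in place of 0 in both genotypes (Tnfsf9 in WT, Cd40 in Arntl-/- cells), and at 48 h 2 in place of 1 were lowered in Arntl-/- cells. With a pseudocount of 1, 1 in place of 3 was raised in Arntl-/- cells at 6 h. The other 94 of 100 recomputed counts stayed within 1.5 times the main count. Of 500 recomputed log2 ratios of the 10 genes, 53 moved beyond their counting interval, and 0 of those past 1.5-fold changed sign. The deposited scaling moved the median log2 ratio of all genes by over 0.1 in 4 comparisons, to 0.13 (WT at 6 h), -0.13 (WT at 48 h), -0.18 (Arntl-/- at 48 h) and -0.13 (between genotypes at 6 h).

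The ratios of Cd40, Cd80 and Pdcd1lg2 at 48 h were past 1.5-fold under all 5 alternatives, between 0.67 and 0.73 for Cd40, 0.79 and 0.85 for Cd80 and 1.75 and 2.77 for Pdcd1lg2 (log2). The share of all genes past 1.5-fold between genotypes, 5.18, 4.67, 6.70 and 11.7% in order of time, was 17.0, 15.3, 18.7 and 23.7% over the 13735 genes with a mean FPKM of at least 1 and 22.6, 22.7, 23.0 and 27.4% over the 16320 genes with more than 3 reads in a library, as more low genes were included. After KLA it was 8.94 and 17.5% in WT cells at 6 and 24 h, compared with 19.6 and 27.8% and with 26.1 and 30.2%, and in Arntl-/- cells 6.47 and 17.4%, compared with 17.9 and 26.6% and with 24.1 and 31.1%. No pairing of replicates was possible because each condition had 1 library and the columns carry no replicate number, and no library could be left out. A fit with time as a block, for a genotype effect common to the 4 times, was not run. Depth limits Pdcd1lg2 most, with 3 to 66 reads, then Icosl and Cd40, with 61 and 62 reads in WT cells at 48 h.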

Other observations

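Cd28, the T cell receptor for Cd80 and Cd86, stood between 97.9 and 147 scaled FPKM in the 8 libraries, with 625 to 2225 reads in each, while the T cell markers Cd3e, Cd3d, Cd3g and Cd8a had at most 3 reads in any of them, Cd2, Lck and Cd5 at most 6, 7 and 24, and Cd4 between 10 and 61. In order of time its level was 122, 106, 97.9 and 109.9 in the WT libraries and 147, 120.05, 102 and 113 in the Arntl-/- libraries.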
